A study of Drosophila melanogaster with 18 samples.

Results

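The early prepupal interval, from pupariation (0 h) to 4 h later, was examined in EcRi animals, Drosophila melanogaster carrying hs-EcRi-11. This transgene makes double-stranded RNA against the region common to all forms of the ecdysone receptor gene EcR under a heat-inducible promoter, so interference is switched on throughout the body. The 3 arrays labelled as 4 h EcR mutant prepupae were set against the 3 labelled as 0 h, which makes 6 of the 18 Affymetrix Drosophila Genome Arrays in the series. The other 12 arrays held EcRi animals 4 h before pupariation and control animals of the w1118 strain at each of the 3 times, in groups of 3. EcRi larvae had been given 2 heat treatments of 1 h at 37°C, 24 and 18 h before pupariation. Whether the controls were also heated is not stated, so the strains differed in genetic background and, as far as is stated, in heat treatment as well as in the transgene. Each array measured RNA pooled from 10 whole animals of an independent collection, and the spread given below is between these collections. The question put to the data was which transcripts still changed in these 4 h when EcR had been targeted.

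Pupariation follows a pulse of the steroid hormone 20-hydroxyecdysone (20E), which acts through the heterodimer of EcR and Ultraspiracle and sets off a cascade of transcription factors and their target genes. In the first hours of the prepupal period the larval cuticle is tanned into the puparium, the epidermis separates from it and starts a pupal cuticle, the salivary gland turns from glue to late puff genes, and the larval midgut begins to be replaced. Genes of the epidermis, the cuticle, the gut and the salivary gland are therefore among those that change in normal prepupae.

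The arrays of both compared groups were less alike than those of most other groups. EcRi 0 h replicate 1 correlated with the others of its group at 0.820 and 0.825 over log2 intensities of all probe sets, against 0.991 between replicates 2 and 3, and its nearest array was control -4 h replicate 1 (0.933). It read over 2-fold above the mean of replicates 2 and 3 for 1124 probe sets and over 2-fold below it for 1785, while replicates 2 and 3 were over 2-fold apart for 55. At 4 h, replicate 2 correlated with the other arrays of its group at 0.944 and 0.945, below its 0.976 with EcRi 0 h replicate 2, and replicates 1 and 3 together read over 2-fold below it for 507 probe sets. The median SD within a group was 0.21 on the log2 scale for EcRi at 4 h and 0.36 for EcRi at 0 h (0.07 without replicate 1), and 0.08 to 0.24 in the other groups. Changes of named genes in EcRi animals are therefore given with all arrays and, after the words reduced set, in the fit without EcRi 0 h replicate 1, and differences between the strains are given without it where that alters the call. Some counts are also given without 4 arrays, namely that one, control -4 h replicate 1 and EcRi 4 h replicates 1 and 3, which leaves EcRi 4 h with replicate 2 alone, assumed to vary like the other groups. EcR itself, the target of the interference, was not called between the times. One probe set read 510, 533 and 520 at 4 h and 387, 548 and 487 at 0 h (log2 change 0.15 ± 0.09, SE, reduced set 0.01), and the other read 215, 192 and 215 at 4 h and 288, 215 and 208 at 0 h (-0.18 ± 0.13, reduced set -0.03). The groups overlapped for both, and both missed the test.

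Of 13966 probe sets, 205 (1.47%) changed between 4 and 0 h in EcRi animals, 96 higher at 4 h (0.687%) and 109 lower (0.78%). A probe set was called changed where the fit to all 18 arrays with limma gave an adjusted p under 0.10 and a change of at least 1.5-fold, the study's own limits, and 1755 probe sets had an unadjusted p under 0.05. Intensities under 91.6, the 20th percentile of all values, entered the fit at that floor, so changes of dim transcripts are understated, while the values printed are as deposited. Without EcRi 0 h replicate 1 the calls were 459 (3.29%), 80 higher (0.573%) and 379 lower (2.71%). Without 4 arrays they were 423 (3.03%), 291 higher (2.08%) and 132 lower (0.945%). Of the calls with all arrays, 66 higher and 92 lower were also called without replicate 1, 59 higher and 61 lower were called in all 3 of these fits, and 0 were called in opposite directions in any pair of them. The calls lean on the spread being estimated over all groups. With the 6 compared arrays alone, 1 probe set was called, the midgut protease gene Jon25Bi (lower at 4 h), although 705 had an unadjusted p under 0.05, and a reimplementation of significance analysis of microarrays (SAM), the study's own method, called 149 on the same arrays (69 higher, 80 lower). The 9 EcRi arrays alone gave 34 calls, of which 32 were among the 205. When each of the 6 arrays was left out in turn, 42 higher and 38 lower probe sets kept their call every time. In the text below, a named gene kept its call in each of these 6 fits unless the arrays without which it lost it are given. Over the 91 such losses of the 25 probe sets among those the naming rule chose, which leaves out Osi14 and Osi18, the log2 change without the array was 0.678 to 1.14 times that with all arrays, and the adjusted p was 0.0314 to 0.324.

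**Figure D1:**
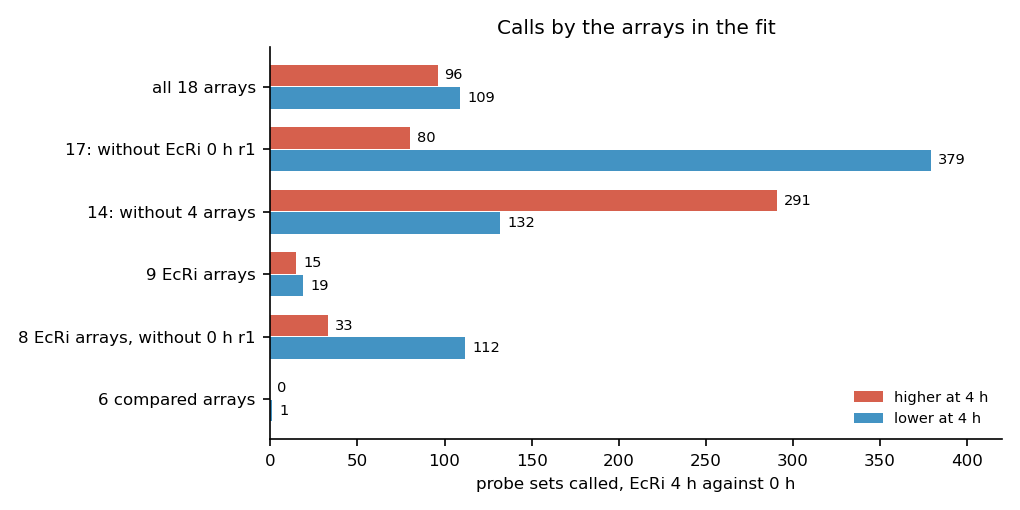
Bars give the number of probe sets called higher and lower at 4 h than at 0 h in EcRi animals (horizontal axis, count) in fits to different sets of arrays (vertical axis). With all 18 arrays 96 were higher and 109 lower, without EcRi 0 h replicate 1 the lower calls were 379, without 4 arrays the higher calls were 291, and with the 6 compared arrays alone 1 was called.

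Osi7 had the largest rise, and Osi6 and Osi15 were also among the 12 largest. Osi7, Osi6 and Osi15 belong to the Osiris family, insect membrane proteins expressed in epithelia that secrete cuticle. Osi7 read 4926, 7417 and 5794 at 4 h and 382, 1135 and 567 at 0 h, so the lowest 4 h array was above the highest 0 h array. Its change was 3.25 ± 0.30 on the log2 scale (9.51-fold, limma adjusted p = 0.000399) and 2.89 without 0 h replicate 1. Osi6 read 7291, 8730 and 6213 at 4 h and 1307, 1349 and 704 at 0 h (2.77 ± 0.31, 6.83-fold, 2.91 without that replicate). Osi15 read 1763, 2309 and 1812 at 4 h and 343, 375 and 247 at 0 h (2.62 ± 0.28, 6.15-fold, 2.68 without it). The times did not overlap for any of these genes, which the choice of the 12 largest rises required. Before pupariation, at -4 h, EcRi animals read 369 ± 36.7 for Osi7 and 585 ± 88.8 for Osi6 (SD, n = 3), means that lie below the lowest 0 h array of each gene. In whole animals, more epidermal cells and more RNA per cell cannot be told apart.

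**Figure D2:**
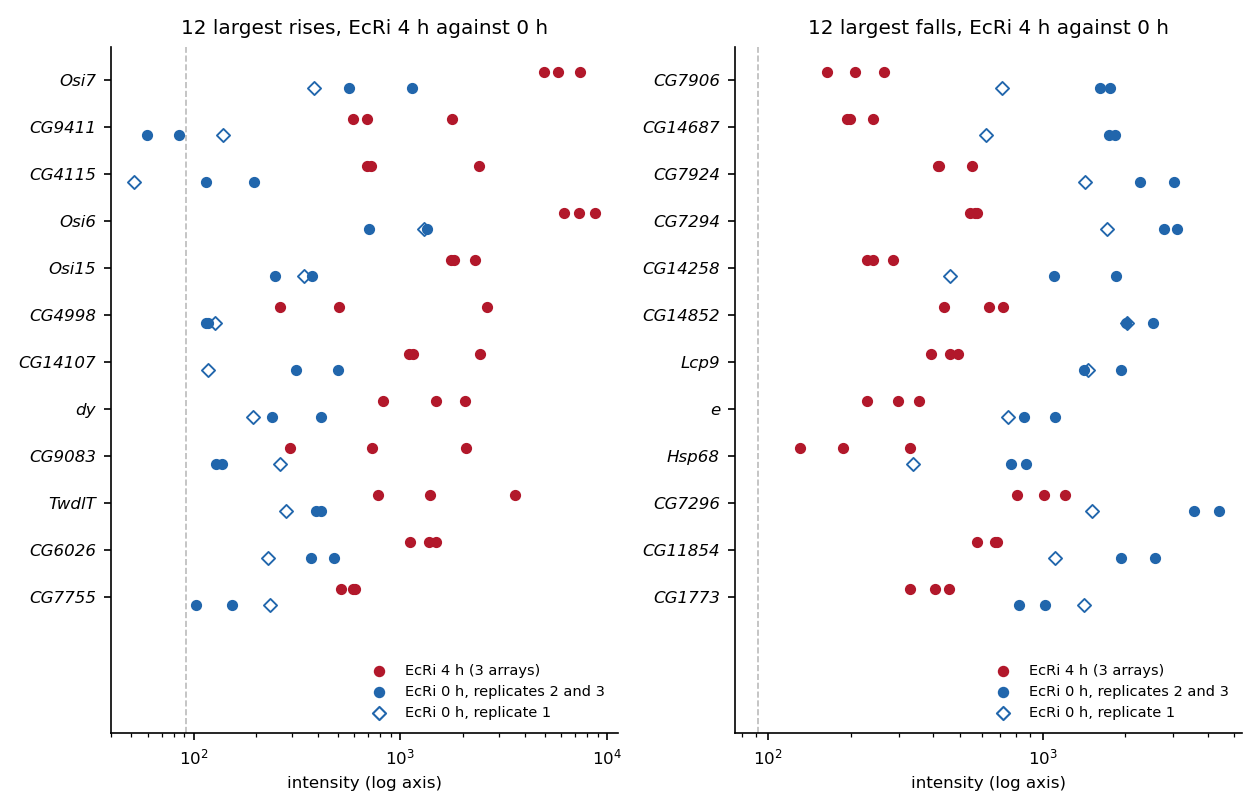
Intensity of each of the 6 arrays (horizontal axis, log scale) for the 12 largest rises (left) and the 12 largest falls (right) in EcRi animals, with 4 h in red, 0 h replicates 2 and 3 in blue, 0 h replicate 1 as an open diamond and the intensity floor of 91.6 as a dashed line. For every gene the 4 h arrays lie on one side of the 0 h arrays, which the choice of these genes required, and 0 h replicate 1 often lies away from the other 0 h arrays.

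Of 24 measured Osiris genes, 9 were higher at 4 h and 0 lower, beside 0.687% and 0.78% of all probe sets. No overlap between the times was seen for 12 of them and for 8.99% of all probe sets. Their median change was 0.36 on the log2 scale, against 0 over all probe sets, and 20 had a positive change. Without 0 h replicate 1, 9 were again higher (median 0.43), and without 4 arrays 11 were. Beside the 3 above, Osi17 read 471, 535 and 522 at 4 h and 209, 270 and 247 at 0 h (1.08 ± 0.10, reduced set 0.98). Osi24 read 533, 791 and 558 at 4 h and 187, 338 and 305 at 0 h (1.20 ± 0.19, reduced set 0.94), and Osi9 read 1135, 1969 and 1326 at 4 h and 681, 661 and 747 at 0 h (1.05 ± 0.17, reduced set 1.03). In each of these the groups were well separated. Osi2 had 1 array far above the others, with 355, 1360 and 275 at 4 h and 183, 133 and 139 at 0 h (1.77 ± 0.42, reduced set 1.91), and lost its call without 0 h replicate 2 or 3. Osi14 read 2258, 2852 and 1874 at 4 h and 1791, 1255 and 1215 at 0 h (0.71 ± 0.18, reduced set 0.89), with its highest 0 h array close to its lowest 4 h array, and lost its call without 4 h replicate 1 or 2 or 0 h replicate 2 or 3. Osi18 rose by 0.69 and fell under the fold limit without 0 h replicate 1 (0.58) or 4 h replicate 2. Osi20 read 1088, 1663 and 1188 at 4 h and 1034, 608 and 589 at 0 h, was not called with all arrays (0.85, adjusted p = 0.113) and was called without 0 h replicate 1 (1.11). In RefSeq gene order, 21 of the 24 lie close together on chromosome arm 3R, while Osi21 lies on 2L and Osi22 and Osi23 elsewhere on 3R. The summed intensity of the list was 23952, 31833 and 23647 at 4 h and 9924, 9391 and 7943 at 0 h. In controls 7 of the 24 were higher over the same interval (median 0.05), and the difference between the strains was called for 0 of them, or for 1, higher in EcRi, without 0 h replicate 1.

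**Figure D3:**
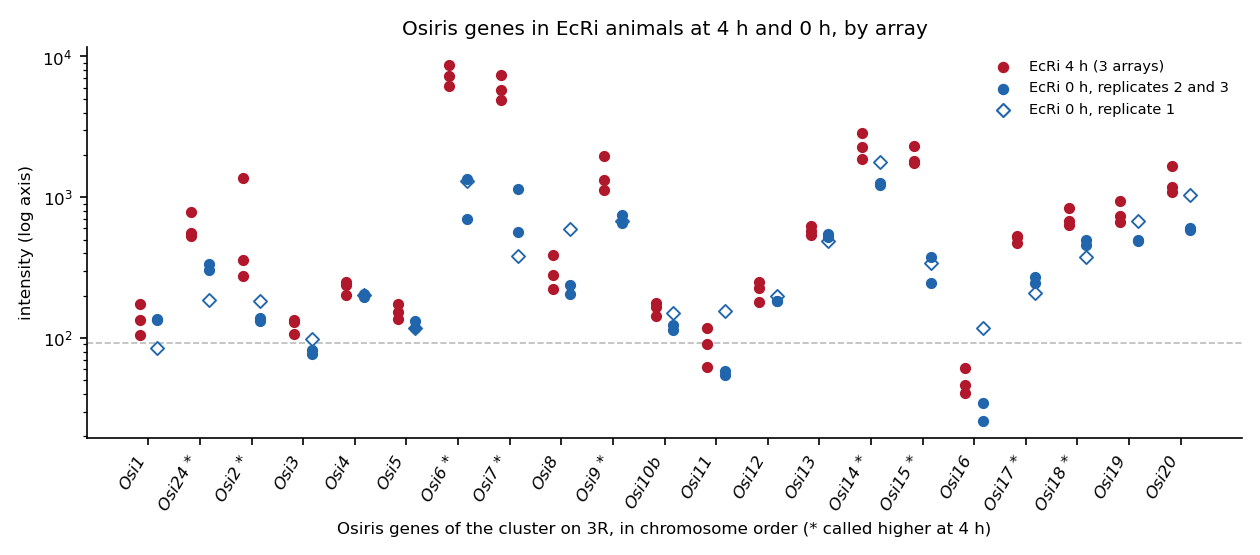
Intensity on each EcRi array (vertical axis, log scale) of the 21 Osiris genes that lie together on 3R, in chromosome order (horizontal axis), with 4 h in red, 0 h replicates 2 and 3 in blue and 0 h replicate 1 as an open diamond, an asterisk on the genes called and the floor as a dashed line. Called genes such as Osi6, Osi7 and Osi15 alternate with genes whose 6 arrays overlap, so the rise was not uniform along the chromosome.

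The remaining large rises included genes of the apical extracellular matrix and of the cuticle. The gene dy (dusky) encodes a zona pellucida (ZP) domain protein of the apical surface of epidermal cells. It read 824, 2050 and 1491 at 4 h and 194, 411 and 240 at 0 h (2.35 ± 0.34, 5.09-fold, 2.12 without 0 h replicate 1). Its relative dyl (dusky-like) read 1038, 1601 and 999 at 4 h and 427, 645 and 622 at 0 h (1.09, reduced set 0.90). Every 4 h array was above every 0 h array for both genes. Another ZP gene, zye, ran the other way, with 587, 666 and 646 at 4 h and 816, 1176 and 1319 at 0 h (-0.78, and -0.98 without 0 h replicate 1). Of 10 measured ZP genes these were the calls, 2 higher and 1 lower with all arrays and 2 each without 0 h replicate 1. The shares called over all probe sets were 1.47% with all arrays and 3.29% without that replicate.

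TwdlT, of the Tweedle family of cuticle proteins, read 1390, 3569 and 781 at 4 h and 281, 413 and 390 at 0 h (2.14 ± 0.38, 4.41-fold, 1.97 without 0 h replicate 1). Its second probe set read 658, 717 and 409 at 4 h and 258, 287 and 280 at 0 h (1.07). The times did not overlap on either probe set. Of 21 Tweedle genes, TwdlT was the 1 called with all arrays, beside 1.47% of all probe sets. TwdlE, with 978, 3606 and 586 at 4 h and 762, 339 and 336 at 0 h, had overlapping groups and missed the test (1.52, adjusted p = 0.228), but was called along with TwdlT without 0 h replicate 1 (1.92), which makes 2 higher there and 3 without 4 arrays. Of 64 measured Cpr cuticle protein genes, which carry the chitin-binding Rebers and Riddiford motif, 1 was higher and 1 lower with all arrays, and 1 higher and 3 lower without 0 h replicate 1. Over all probe sets 0.687% were higher and 0.78% lower with all arrays, and 0.573% and 2.71% without that replicate. These Cpr counts are near those shares. Cpr11A read 225, 196 and 176 at 4 h and 133, 126 and 108 at 0 h (0.70, reduced set 0.76), and Cpr67B read 1793, 1384 and 1700 at 4 h and 4462, 3782 and 4283 at 0 h (-1.37, reduced set -1.32). These genes moved apart without overlap. Without 4 arrays, 11 Cpr genes were higher and 3 lower.

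The other 7 of the largest rises have gene numbers or are little described. CG9411 read 592, 1775 and 691 at 4 h and 138, 85.4 and 59.4 at 0 h (3.10 ± 0.40, 8.56-fold, 3.29 without 0 h replicate 1). CG4115 read 687, 2409 and 720 at 4 h and 51.3, 197 and 115 at 0 h (3.06, reduced set 2.82). CG14107 read 1098, 2425 and 1148 at 4 h and 117, 501 and 314 at 0 h (2.46, reduced set 1.87). In all of these replicate 2 was the highest of the 4 h arrays, as it was for each of the 12. CG6026 read 1108, 1486 and 1383 at 4 h and 228, 477 and 368 at 0 h (1.94, reduced set 1.65), and CG7755 read 515, 603 and 590 at 4 h and 233, 153 and 103 at 0 h (1.88, reduced set 2.18). The remaining pair depended on few arrays. CG4998 read 503, 2618 and 262 at 4 h and 127, 115 and 117 at 0 h (2.55 ± 0.60, reduced set 2.60) and lost its call without 0 h replicate 2 or 3. CG9083 read 731, 2076 and 292 at 4 h and 261, 129 and 138 at 0 h (2.19, reduced set 2.52) and lost it without 4 h replicate 1 or 0 h replicate 2 or 3.

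Regulatory and other named genes also rose, chosen here after their values were seen, from those that kept their call with each array left out. The transcription factor gene ken, a repressor of JAK/STAT targets, read 352, 870 and 350 at 4 h and 151, 195 and 182 at 0 h (1.44, reduced set 1.34). Snoo, a Ski-family regulator of transforming growth factor beta signalling, read 1207, 1562 and 1107 at 4 h and 475, 473 and 460 at 0 h (1.45, reduced set 1.45) on the brighter of its probe sets. Pdp1, a PAR-domain bZIP factor of growth and of the clock, read 167, 244 and 157 at 4 h and 75.4, 111 and 101 at 0 h (0.88, reduced set 0.81). In these the 4 h arrays were above all 0 h arrays. The gene amd, which acts in cuticle formation, read 566, 967 and 674 at 4 h and 391, 366 and 323 at 0 h on one probe set (1.00, reduced set 1.06), and its second probe set overlapped (0.37, reduced set 0.01, not called). The gene mtg (mind the gap), for a secreted matrix protein, read 407, 566 and 520 at 4 h and 207, 261 and 227 at 0 h (1.10, reduced set 1.02).

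The 12 largest falls were mostly in genes known by number, with a larval cuticle gene, a tanning gene and a heat-shock gene among them. CG7906 read 207, 163 and 264 at 4 h and 710, 1755 and 1622 at 0 h (-2.61 ± 0.36, 6.09-fold lower, adjusted p = 0.00303, and -3.02 without 0 h replicate 1). CG7924, 2 steps from it in gene order on arm 3L, read 415, 553 and 419 at 4 h and 1433, 3020 and 2261 at 0 h (-2.22, reduced set -2.51). CG14687 read 194, 240 and 198 at 4 h and 624, 1747 and 1838 at 0 h (-2.59, reduced set -3.09). In all of them replicate 1 was the lowest of the 0 h arrays, and leaving it out made the fall larger. The neighbouring genes CG7294 and CG7296 on arm 2L fell together. CG7294 read 575, 565 and 542 at 4 h and 1719, 2772 and 3102 at 0 h (-2.13 ± 0.22, reduced set -2.39), and CG7296 read 1205, 806 and 1014 at 4 h and 1510, 3575 and 4397 at 0 h (-1.53, reduced set -1.99). Lcp9, a larval cuticle protein gene, read 462, 391 and 493 at 4 h and 1470, 1413 and 1938 at 0 h (-1.83 ± 0.21, 3.56-fold lower, -1.89 without 0 h replicate 1). CG14852 read 437, 720 and 639 at 4 h and 2033, 2525 and 2021 at 0 h (-1.90, reduced set -1.95). Neither of these genes overlapped, which their choice required, and 0 h replicate 1 lay with the others of its group. CG14258 read 242, 285 and 229 at 4 h and 461, 1102 and 1857 at 0 h (-1.97, reduced set -2.51), and lost its call without 4 h replicate 1 or 3 or 0 h replicate 2 or 3. CG11854 (-1.46, reduced set -1.79) and CG1773 (-1.43, reduced set -1.22) completed the genes known by number.

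Of the falling transcripts, CG14852 and Lcp9, and Cpr67B from outside the 12, were well above control level when the interval began. CG14852 averaged 3677 ± 407 in EcRi animals at -4 h, and 245 at 4 h and 258 at 0 h in controls. Lcp9 averaged 2120 ± 232 in EcRi animals at -4 h, and 164 at 4 h and 173 at 0 h in controls, and Cpr67B averaged 321 and 393 in controls at those times. The fall in EcRi animals thus brought these genes towards the control level without reaching it. CG7294, CG7296 and CG11854, also among the 12, were above control at 0 h too. Their 0 h means in EcRi animals and controls were 2531 and 530, 3160 and 526, and 1872 and 319. Others began below control, with 0 h means of 1362 in EcRi animals and 7234 in controls for CG7906, 2238 and 12559 for CG7924, 1403 and 2914 for CG14687, and 1089 and 2285 for CG1773. Over all 109 lower probe sets, the EcRi 0 h mean was over 2-fold above the control 0 h mean for 38 and over 2-fold below it for 21. Among all 13966 probe sets these counts were 270 and 438. The 0 h arrays enter both the fall and this comparison, so the counts are a description.

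Heat-shock genes fell in part. Of 6 measured, 3 were lower at 4 h and 0 higher, beside 0.78% and 0.687% of all probe sets. Hsp27 read 1320, 1444 and 1649 at 4 h and 2743, 2823 and 3247 at 0 h, with means of 1471 ± 166 at 4 h and 2938 ± 271 at 0 h (SD, n = 3 each). Its limma adjusted p was 0.000174, and its log2 change was -1.05 without 0 h replicate 1. Hsp68 read 187, 328 and 130 at 4 h and 338, 768 and 870 at 0 h (-1.61, reduced set -2.03), and Hsp26 read 1138, 1731 and 1484 at 4 h and 1984, 2377 and 2174 at 0 h (-0.60, reduced set -0.67). The times did not overlap for these genes, which for Hsp68 the choice of the largest falls required. Hsp68 lost its call without 4 h replicate 1 or 3 or 0 h replicate 2 or 3. Hsp26 lost its call without 4 h replicate 1 or 0 h replicate 2 or 3. The related small heat-shock gene l(2)efl read 2702, 2002 and 3185 at 4 h and 6731, 5627 and 6565 at 0 h (-1.28, reduced set -1.23). The summed intensity of the list was 3757, 5157 and 4592 at 4 h and 6275, 7641 and 7810 at 0 h. The heat treatment preceded all EcRi arrays, so its part in these values was not tested.

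Tanning enzymes, which make the catecholamines that harden and colour the puparium, fell in part. Of 8 genes of catecholamine tanning and pteridine synthesis, 2 were lower with all arrays and 3 without 0 h replicate 1. The shares lower over all probe sets were 0.78% and 2.71% in these fits. The gene e (ebony), for N-beta-alanyl-dopamine synthase, read 229, 354 and 296 at 4 h and 746, 1106 and 853 at 0 h (-1.62, reduced set -1.75), and lost its call without 4 h replicate 1 or 3 or 0 h replicate 2. Pu, for the GTP cyclohydrolase of pteridine synthesis, read 45.9, 130 and 67.2 at 4 h and 132, 403 and 365 at 0 h (-1.38, reduced set -1.90), with 4 h replicates 1 and 3 under the floor, and lost its call without 4 h replicate 1 or 3 or 0 h replicate 2 or 3. Ddc, for dopa decarboxylase, read 816, 1669 and 909 at 4 h and 898, 1930 and 2398 at 0 h. Its groups overlapped (-0.58, adjusted p = 0.493), and without 0 h replicate 1 it was called (-1.002). The tyrosine hydroxylase gene ple missed the test either way (-0.37, and -0.63 without that replicate). Of 13 genes of the Yellow family, yellow-e read 198, 202 and 286 at 4 h and 569, 434 and 430 at 0 h (-1.07, reduced set -0.94). The other call, yellow-d2, read 349, 190 and 363 at 4 h and 356, 1013 and 1656 at 0 h, with 0 h replicate 1 among the 4 h arrays (-1.54, reduced set -2.16), and lost its call with each array left out other than that one. Tat and Oat, for amino acid transaminases and chosen after their values were seen, also fell. Tat read 335, 244 and 392 at 4 h and 750, 680 and 692 at 0 h (-1.15, reduced set -1.11), and Oat read 1614, 1688 and 1695 at 4 h and 2598, 3431 and 4028 at 0 h (-0.99, reduced set -1.16).

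Some digestive proteases of the midgut fell. For comparison, 0.78% of all probe sets were lower with all arrays and 2.71% without 0 h replicate 1. Of 14 measured Jonah serine proteases, 4 were lower at 4 h and 0 higher with all arrays, 7 lower without 0 h replicate 1 and 0 without 4 arrays, with a median of -0.56, and 0 of the 14 had a positive change. Jon25Bi read 4487, 4728 and 4528 at 4 h and 7093, 7071 and 7170 at 0 h (-0.63, reduced set -0.64), and it was the gene called with the 6 compared arrays alone. Jon65Ai read 2650, 3617 and 3057 at 4 h and 5101, 5823 and 5439 at 0 h (-0.82, reduced set -0.87). Jon66Cii (-1.11, reduced set -1.36) lost its call without 4 h replicate 1 or 3 or 0 h replicate 2 or 3, and Jon66Ci (-0.86, reduced set -0.91) with each array left out other than 0 h replicate 1. The summed intensity of the list was 71023, 74138 and 70911 at 4 h and 92380, 100434 and 99007 at 0 h. In controls 11 of the 14 were lower, with a median of -2.21, and the difference between the strains was called for 10, all smaller falls in EcRi. Trypsin genes gave 0 of 9 calls in EcRi animals, also without 0 h replicate 1 and without 4 arrays, and 4 lower in controls.

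Few genes of the 20E hierarchy were called, as few were of all probe sets (1.47%). Of 18 early ecdysone regulators, 0 were called with all arrays when each gene was read by its brightest probe set, which is near that share. In controls 1 was higher and 2 were lower. Without 0 h replicate 1, 2 were lower in EcRi animals, br and Sox14. The Broad-Complex gene br, an early-response zinc finger regulator, had a bright probe set that read 125, 291 and 148 at 4 h and 193, 652 and 853 at 0 h (-1.44, adjusted p = 0.229, and -2.09 without 0 h replicate 1). A dimmer one read 127, 121 and 150 at 4 h and 246, 239 and 234 at 0 h and was called (-0.86), while the remaining one overlapped (-0.13). The probe sets for this gene thus differed in size of change. The hormone receptor gene Hr3, an early-late regulator, changed by -0.93 and was not called. Of 11 ecdysone-inducible effector genes, MsrA, a methionine sulfoxide reductase, was lower, with 99.5, 120 and 113 at 4 h and 146, 246 and 210 at 0 h (-0.83, reduced set -1.04), and lost its call without 4 h replicate 1 or 3 or 0 h replicate 2 or 3. ImpL1, an imaginal disc gene, read 5297, 6685 and 8141 at 4 h and 4331, 3767 and 3351 at 0 h, without overlap, yet missed the test (0.80, reduced set 0.89, adjusted p = 0.262). Cyp18a1, whose enzyme inactivates ecdysteroids, read 134, 421 and 160 at 4 h and 59.9, 97.5 and 74.1 at 0 h (1.16, reduced set 1.14, adjusted p = 0.106). Salivary gland genes gave no call with all arrays. Of 10 glue and intermoult genes 0 were called in EcRi (median -0.19) against 7 lower in controls, with 2 lower, ng3 and Pig1, without 0 h replicate 1 and 1 higher and 1 lower without 4 arrays. Of 9 L71 late puff genes 0 were called in any of these fits (median -0.06) against 6 higher and 1 lower in controls. The difference between the strains was called for 7 glue genes, higher in EcRi (and for ng3, lower in EcRi, without 0 h replicate 1), and for 7 L71 genes, 6 of them lower and 1 higher in EcRi.

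Some immune and detoxification genes were called, beside 1.47% of all probe sets. Of 18 antimicrobial peptide genes 2 were higher with all arrays, beside 0.687% of all probe sets, and 0 without 0 h replicate 1. In controls 3 of them were higher. BomS5, a Bomanin, read 1768, 1439 and 961 at 4 h and 334, 1110 and 196 at 0 h, with overlap (1.69, reduced set 1.53), and Def, a defensin, read 536, 519 and 275 at 4 h and 188, 202 and 268 at 0 h (0.97, reduced set 0.87). BomS5 lost its call with each array left out other than 0 h replicate 2, and Def without 4 h replicate 1 or 2 or 0 h replicate 1 or 2. PPO2, a prophenoloxidase of crystal cells, read 1753, 2622 and 1844 at 4 h and 3536, 4438 and 3289 at 0 h on one probe set (-0.87, reduced set -0.91), and was lost without 4 h replicate 1 or 3 or 0 h replicate 2, while its other probe set was not called (0.54, reduced set 0.12). Spn100A, a serpin gene, read 643, 965 and 955 at 4 h and 1200, 1963 and 2041 at 0 h (-1.01, reduced set -1.25), and was lost without 4 h replicate 1 or 0 h replicate 2 or 3. Among 83 cytochrome P450 genes, Cyp301a1 rose (361, 531 and 400 at 4 h, and 224, 299 and 232 at 0 h, 0.77, reduced set 0.69) and Cyp9f2 fell (-0.89, reduced set -1.07, lost without 4 h replicate 1 or 3 or 0 h replicate 2 or 3). Obp56d, an odorant-binding protein gene, fell by 1.03 (reduced set -1.19). Of 5 acyl-CoA-binding protein genes, Acbp4 rose (0.71, reduced set 0.67) and Acbp5 fell (-1.09, reduced set -1.24, lost without 4 h replicate 1 or 3 or 0 h replicate 3).

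With all arrays, the spread within groups was smaller in controls at 0 and 4 h. It was larger in controls at -4 h (median SD 0.24, against 0.08 in EcRi animals). The fit used the same spread of a probe set for both strains. More probe sets were called in controls over the same 4 h. There 643 probe sets (4.6%) were called, 272 higher (1.95%) and 371 lower (2.66%), and the difference of the changes, EcRi minus control, was called for 370 (2.65%), 213 higher in EcRi (1.53%) and 157 lower (1.12%), or for 591 (4.23%) without EcRi 0 h replicate 1, 224 higher (1.6%) and 367 lower (2.63%). Of the 643, which were chosen on the control change, 555 (86.3%) were not called in EcRi. Of the 205 EcRi calls, 86 (42%) were called in the same direction in controls, 44 higher and 42 lower, 2 in the opposite direction, and 117 not in controls. A call in 1 strain alone does not show a difference. The difference itself was called for 57 of the 205, among them 30 of the 117 and both opposite ones. Each strain's change has its own arrays, but the difference uses both, and so these counts are not independent.

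**Figure D4:**
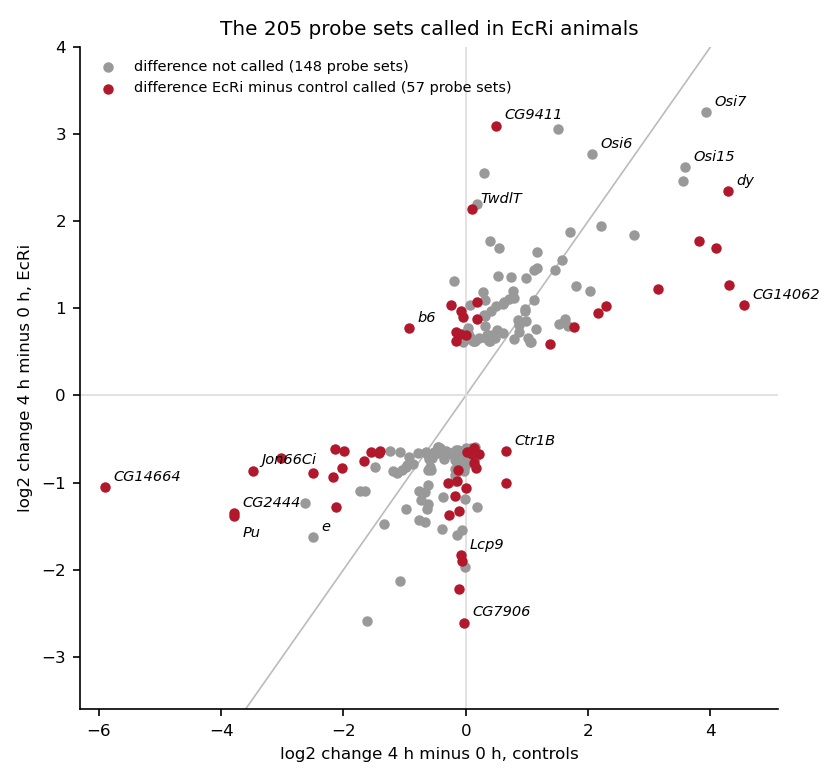
Log2 change from 0 to 4 h in EcRi animals (vertical axis) against that in controls (horizontal axis) for the 205 probe sets called in EcRi animals, with 57 in red whose difference between strains was called and 148 in grey whose difference was not, and the diagonal for equal change. The points were chosen on the vertical axis, and red points lie away from the diagonal. Among them are TwdlT with little change in controls and dy with a larger rise in controls. CG9411 is also red, with a control rise made smaller by the intensity floor.

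Among the rises called in both strains with no called difference, the largest by the smaller of the 2 changes were those of Osi7 (3.25 in EcRi and 3.93 in controls), Osi15 (2.62 and 3.58), CG14107 (2.46 and 3.55), Osi6 (2.77 and 2.07) and CG6026 (1.94 and 2.21), while CG4115 rose by 3.06 and 1.52. For CG14107 the difference was called without 0 h replicate 1 (-1.68). Osi7 averaged 6046 at 4 h and 695 at 0 h in EcRi animals, and 3409 and 222 in controls. For Osi7 the difference was -0.68, with a 95% interval of -1.60 to 0.25 (adjusted p = 0.74). The gene dy rose in both but less in EcRi (2.35, reduced set 2.12, against 4.28 in controls, a difference of -1.93 that was lost without any 1 of 7 arrays). Among the falls shared with controls, CG14687 (-2.59 and -1.62) had no called difference with all arrays (-0.96, interval -2.02 to 0.09) and a called one without 0 h replicate 1 (-1.47), whereas Pu (-1.38 and -3.79), CG2444 (-1.35 and -3.79) and l(2)efl (-1.28 and -2.12, lost without any 1 of 7 arrays) fell less in EcRi by the test of the difference. CG2444 read 1162, 1762 and 1387 at 4 h and 3349, 3950 and 3540 at 0 h in EcRi animals (reduced set -1.40), and averaged 615 at 4 h and 8505 at 0 h in controls. For e (-1.62 and -2.50) and Est-P, an esterase gene at the floor on all 4 h arrays (56.3, 57 and 51.9 at 4 h and 130, 234 and 326 at 0 h, -1.23, reduced set -1.59), the difference was not called. Est-P lost its call in EcRi without 4 h replicate 1 or 3 or 0 h replicate 2 or 3.

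Some changes were larger in EcRi animals than in controls by that test. CG9411 rose by 3.10 against 0.49 in controls (difference 2.61, adjusted p = 0.0256). Its control arrays averaged 130.5 at 4 h and 35.1 at 0 h. The 0 h value lies under the floor, so the control rise is understated and the difference overstated. Over 30 other settings the difference was as low as 1.49, and its call was lost in 2. TwdlT rose by 2.14 against 0.11 (2.03, adjusted p = 0.0824, with the call lost without any 1 of 10 of the 12 arrays of the 2 strains). CG7906 fell by 2.61 in EcRi animals and by 0.02 in controls, where it averaged 7125 at 4 h and 7234 at 0 h, a difference of -2.58 (adjusted p = 0.0136). CG7924 (-2.11, also lost without any 1 of 10), CG14852 (-1.84), Lcp9 (-1.76), Cpr67B (-1.09), yellow-e (-1.07), zye (-0.90, lost without any 1 of 3) and Hsp27 (-0.71) also fell more in EcRi, and in controls none of them changed by more than 0.29 on the log2 scale. Without EcRi 0 h replicate 1 the difference was no longer called for TwdlT (1.86), and was called also for CG14258 (-2.50), yellow-d2 (-2.11), Hsp68 (-1.89), CG7296 (-1.60) and CG7294 (-1.31). Of 43 named genes with a called difference, 41 kept it in that fit. The 2 genes called in opposite directions were b6 and Ctr1B. The gene b6 read 432, 373 and 387 at 4 h and 226, 221 and 250 at 0 h in EcRi animals (0.77 ± 0.10, reduced set 0.76), and averaged 252 at 4 h and 478 at 0 h in controls (-0.92), a difference of 1.70 (adjusted p = 1.01e-05). Ctr1B, for a copper transporter, read 808, 873 and 946 at 4 h and 1515, 1265 and 1325 at 0 h in EcRi animals (-0.64, reduced set -0.57), and averaged 2940 at 4 h and 1865 at 0 h in controls (0.66). Its EcRi call was lost with any 1 of the 6 arrays left out, while its difference was -1.30 (adjusted p = 0.00823).

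The differences furthest from 0 were those of genes with a larger change in controls than in EcRi animals. CG10911, CG32302, CG7290 and CG10910 changed by 0.03, 0.04, -0.03 and 0.04 in EcRi and by -4.00, -3.75, -3.27 and -3.15 in controls. Loxl1, for a lysyl oxidase-like enzyme, changed by 0.07 in EcRi and by 3.80 in controls, CG18179 by -0.69 and 3.61, CG3355 by 0.86 and 4.58, and CG8329 by -0.47 and 3.03. Jon99Fi changed by -0.75 in EcRi and by -4.90 in controls. None of these was called in EcRi animals with all arrays, while CG18179 (-0.90), CG8329 (-0.80) and Jon99Fi (-1.37) were called lower without 0 h replicate 1. CG14664 (-1.05, reduced set -1.004, against -5.90 in controls), CG14062 (1.04, reduced set 1.20, against 4.55) and CG12481 (1.27, reduced set 0.96, against 4.30) were called in both, in the same direction and with a called difference, although in EcRi CG14664 lost its call with each array other than 0 h replicate 3, CG14062 without 4 h replicate 3 or 0 h replicate 3, and CG12481 without 4 h replicate 3 or 0 h replicate 1. Ilp8, which encodes an insulin-like peptide that links disc growth to the timing of pupariation, read 367, 346 and 351 at 4 h and 304, 300 and 281 at 0 h in EcRi animals (0.26, reduced set 0.29, under the fold limit). It averaged 320 at 4 h and 1817 at 0 h in controls, and the difference was 2.77.

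**Figure D5:**
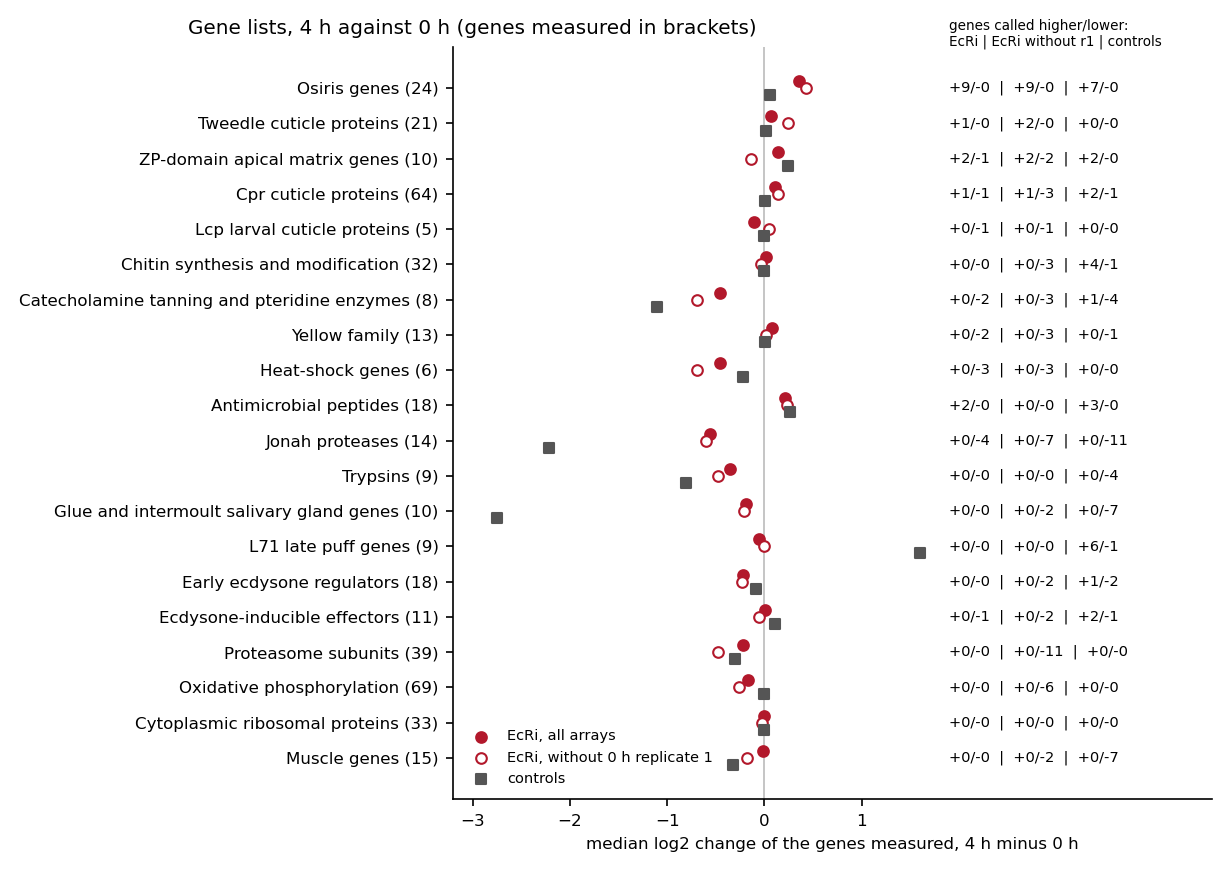
Median log2 change from 0 to 4 h (horizontal axis) of 20 gene lists (vertical axis) in EcRi animals with all arrays, in EcRi animals without 0 h replicate 1, and in controls, with the numbers of genes called higher and lower printed beside each list. Osiris genes lie above 0 in EcRi, Jonah proteases below 0 in both strains and further below in controls, and glue genes lie near 0 in EcRi and far below 0 in controls.

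Across the 48 lists, 43 of the 205 called probe sets (21%) lay in a list, and the lists held 7.23% of all probe sets. The lists were chosen with earlier results of these data known, so these shares are a description. Of the 96 higher 46 (47.9%) and of the 109 lower 40 (36.7%) had only a CG number as a name, as had 35.2% of all probe sets. Lists of basic cell functions held no call with all arrays, and some of them depended on 0 h replicate 1. Over all probe sets 1.47% were called with all arrays, and 2.71% were lower without that replicate. No call in a list of this length, or in the shorter ones below, is thus near the share over all probe sets. Proteasome subunits gave 0 of 39 calls with all arrays (median -0.22) and 11 lower without that replicate (median -0.48). Oxidative phosphorylation genes gave 0 of 69 and 6 lower, and cytoplasmic ribosomal proteins 0 of 33 with all arrays. Markers of other tissues were read in the same way. Neuron genes gave 0 of 8 calls, with a summed intensity of 1807, 1735 and 1766 at 4 h and 1809, 1819 and 1812 at 0 h. Muscle genes gave 0 of 15 with all arrays and 2 lower without 0 h replicate 1, and their sum was 12418, 14217 and 13168 at 4 h and 10674, 15765 and 17596 at 0 h. Male germline genes gave 0 of 15, and their sum varied within each time, at 4840, 8454 and 6971 at 4 h and 10319, 10200 and 5805 at 0 h. The pools may hold different numbers of each sex, and the part of that in the results was not tested.

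Among 3 genes that the study probed on Northern blots, chosen on these samples as changing at pupariation without need of EcR, CG13856 was called in EcRi animals, with 277, 462 and 375 at 4 h and 210, 190 and 196 at 0 h (0.87, reduced set 0.91, against 1.62 in controls). Pepck1, for the gluconeogenic enzyme phosphoenolpyruvate carboxykinase, read 5449, 6750 and 6288 at 4 h and 3503, 5314 and 4348 at 0 h (0.50, reduced set 0.35, adjusted p = 0.224, against 1.12 in controls). CG5065 read 264, 527 and 397 at 4 h and 167, 256 and 234 at 0 h (0.82, reduced set 0.64, adjusted p = 0.111, against 1.85). The 4 h arrays were above all 0 h arrays for each of them, and the difference from controls was called for none with all arrays and for CG5065 without 0 h replicate 1 (-1.21).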

How the data were processed

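RNA from whole animals was hybridised to 18 Affymetrix Drosophila Genome Arrays, 3 per group. The deposited values are linear intensity per probe set, obtained by the authors with dChip, which also scaled the arrays to each other. No source used here states its probe-level model or baseline array. Of 13966 probe sets, 12443 had 1 gene symbol, 327 several and 1196 none in the platform annotation, and 12394 matched a RefSeq gene. Precision is limited by the number of arrays, since an intensity has no count behind it.

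Values were floored at the 20th percentile of all values (91.6) and log2 was taken, which put 1285 probe sets at the floor on every array. The 18 arrays entered 1 linear model with 6 group means, using limma 3.58.1 (R 4.3.3) and its moderated variances. The contrasts were 4 h minus 0 h in each strain and their difference (EcRi minus control). P-values are two-sided and Benjamini-Hochberg adjusted over all probe sets, and a call needed an adjusted p under 0.10 and a 1.5-fold change. Replicate numbers were not used as pairs. The script was tested on simulated data.

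Named genes are EcR, the 12 largest called rises and falls with 1 symbol, no overlap between the times and neither time wholly at the floor, the 6 differences from controls furthest from 0 on each side, 6 shared changes in each direction, the genes called in opposite directions, and from each of 48 gene lists up to 4 called members or else the 2 with the largest changes. Genes named beyond this rule were picked after their values were seen. The compared arrays, lists and rule were chosen with earlier results of these data known. Lists use the brightest probe set of a gene and were described by counts and medians, with no set test. Alternatives were other floors (5th or 40th percentile), a pseudocount of 64 with no floor, other scalings, thresholds and sets of arrays, a variance trend, array weights, SAM, a replicate block and 1 probe set per gene. Fits to the EcRi arrays without 0 h replicate 1, and quantile normalization without it, were added after seeing the data.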

Additional observations from a re-analysis of the deposited data

Results flagged for a closer look

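For 43 of the genes named or examined in the lists, the change from 0 to 4 h differed between the strains by the interaction of strain and time in the limma fit to 18 arrays (adjusted p under 0.10 and at least 1.5-fold). Values below are EcRi minus control on the log2 scale, and no test of the reason for any of them was made.

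In genes that rose more, or fell less, in EcRi animals, the differences were 4.85 for CG14664, 4.03 for CG10911, 3.79 for CG32302, 3.24 for CG7290, 3.20 for CG10910 and 2.44 for CG2444. Among digestive proteases they were 4.15 for Jon99Fi, 2.61 for Jon66Ci, 1.36 for Jon25Bi, 2.10 for alphaTry and 2.26 for epsilonTry. Further values were 2.77 for Ilp8, 2.61 for CG9411, 2.41 for Pu, 2.03 for TwdlT, 1.70 for b6, 1.61 for Cyp9f2, 1.20 for MsrA, 0.83 for l(2)efl, 0.80 for Acbp4, 0.71 for Cdk2 and 0.70 for Cpr11A. The control 0 h arrays lay under the floor for CG9411, which made its difference larger. For Cpr11A all control arrays lay under the floor, with means of 55.6 at 4 h and 54.8 at 0 h. Its control change was therefore set to 0, and its difference only repeats the EcRi change. Over 29 other settings the Cpr11A difference was as low as 0.16, and its call was lost in 4.

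In genes that rose less, or fell more, in EcRi animals, the differences were -4.30 for CG18179, -3.73 for Loxl1, -3.72 for CG3355, -3.52 for CG14062, -3.50 for CG8329 and -3.03 for CG12481. The late puff genes Eig71Eg and Eig71Ed differed by -2.39 and -1.80. Further values were -2.58 for CG7906, -2.11 for CG7924, -1.93 for dy, -1.84 for CG14852, -1.76 for Lcp9, -1.67 for Spn100A, -1.30 for Ctr1B, -1.12 for Hexo2, -1.09 for Cpr67B, -1.07 for yellow-e, -0.90 for zye, -0.87 for Sb and -0.71 for Hsp27.

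Of these, 10 lost the call with at least 1 of the 12 arrays of the 2 strains left out (adjusted p 0.0514 to 0.251, with a difference 0.771 to 1.07 times that with all arrays). TwdlT kept it only without EcRi 4 h replicate 2 or 3, and CG7924 only without EcRi 4 h replicate 2 or EcRi 0 h replicate 1. Sb kept it only without EcRi 4 h replicate 2, EcRi 0 h replicate 1 or control 0 h replicate 1. The gene dy lost it without EcRi 4 h replicate 1, EcRi 0 h replicate 2 or any control array other than control 4 h replicate 2, and Acbp4 without EcRi 4 h replicate 1 or any control array. MsrA lost it without EcRi 4 h replicate 2 or 3 or any control array other than control 4 h replicate 1, and l(2)efl without EcRi 4 h replicate 1 or 3, EcRi 0 h replicate 2, control 4 h replicate 2 or 3 or control 0 h replicate 2 or 3. Cdk2 lost it without EcRi 4 h replicate 1 or 2, EcRi 0 h replicate 1, control 4 h replicate 2 or 3 or control 0 h replicate 1 or 3. Hexo2 lost it without EcRi 4 h replicate 1, control 4 h replicate 1 or 3 or control 0 h replicate 3, and zye without EcRi 4 h replicate 1, control 4 h replicate 2 or control 0 h replicate 1.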

How the results depend on the processing

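The counts of calls moved mostly with the arrays used, and the cause was not tested. With all arrays, 96 probe sets were higher and 109 lower at 4 h in EcRi animals, 643 were called in controls, and 370 for the difference. Without the 2 arrays control -4 h replicate 1 and EcRi 0 h replicate 1 the lower calls were 713 and the differences 782, and without 4 arrays the higher calls were 291 and the differences 806. The compared arrays alone gave 0 higher and 1 lower, or 0 and 5 without EcRi 0 h replicate 1. The 9 EcRi arrays alone gave 15 higher and 19 lower, and 8 of them, without that array, 33 higher and 112 lower. Array weights gave 263 higher, 1147 lower and 1490 differences, with a weight of 0.0234 for that array. Quantile normalization without it gave 242 lower and 612 differences. An adjusted p under 0.05 left 62 higher and 67 lower, a 2-fold limit 44 higher, 37 lower and 385 in controls, and no fold limit gave 194 higher and 217 lower. With 1 array left out in turn, 79 to 127 were higher, 50 to 379 lower, 512 to 553 called in controls and 296 to 591 different. The lower calls were fewest without EcRi 4 h replicate 1 (50) or EcRi 0 h replicate 3 (53), and most without EcRi 4 h replicate 2 (240) or EcRi 0 h replicate 1 (379). Same-numbered EcRi arrays deviated from their group means together with r of 0.27, 0.63 and -0.57. EcRi 0 h replicate 1 sets most of the deviation of the other 0 h arrays, so these values cannot tell whether the replicate numbers pair the arrays. A replicate block gave 81 higher, 95 lower and 348 differences. The other floors, pseudocount, scalings, variance trend, brighter probe sets and 1 probe set per gene kept each EcRi count within 1.5 times. The 59 named probe sets called with all arrays kept their direction in each refit, 58 of them being measured where only brighter probe sets were used, and 52 were called without EcRi 0 h replicate 1, 46 without 4 arrays, 17 with the 9 EcRi arrays and 1 with the compared arrays alone. With 3 arrays per group, changes near 1.5-fold in genes that spread widely between EcRi arrays could not be resolved, and values at the floor have no order.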

Other observations

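Some genes stood out on a single EcRi array, and were chosen after their values were seen. At least 4-fold above the other 5 compared arrays were 3 probe sets on 4 h replicate 1, 6 on 4 h replicate 2 and 10 on 0 h replicate 1, and 0 on the other arrays. On 4 h replicate 2 these were mostly cuticle genes. Edg78E, a cuticle gene of the prepupal epidermis, read 364, 2706 and 329 at 4 h and 157, 199 and 174 at 0 h. Edg84A read 265, 2301 and 232 at 4 h and 142, 208 and 194 at 0 h, and Edg91 read 166, 1844 and 143 at 4 h and 141, 182 and 229 at 0 h. The larval cuticle gene Lcp65Ad read 637, 3415 and 431 at 4 h and 421, 346 and 327 at 0 h. None of these was called with all arrays, and all 3 Edg genes were called higher without 4 arrays, where replicate 2 is the only 4 h array. In controls Edg84A averaged 556 at 4 h and 151 at 0 h, whereas Edg78E averaged 117 at 4 h and 113 at 0 h.

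On 0 h replicate 1 the genes were of other kinds. Both probe sets for eIF5B, a translation initiation factor, stood out there. The first read 405, 513 and 777 at 4 h and 3945, 571 and 582 at 0 h. CG10694 read 76.4, 50.1 and 293 at 4 h and 1841, 42.5 and 43.8 at 0 h, and CG14570 read 240, 211 and 545 at 4 h and 3051, 192 and 179 at 0 h. For these genes 4 h replicate 3 was the next highest array.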
